A study of Danio rerio with 12 samples.

Results

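Adult zebrafish liver libraries differed widely in transcripts of the exocrine pancreas, and the 4 libraries richest in them (pancreas-rich) are compared here with the 4 poorest (pancreas-poor), 8 of 12 libraries in all. The libraries were chosen by an enzyme score, the mean log2 CPM (counts scaled to 1000000 per library, with TMM factors) of trypsin, elastase, carboxypeptidase and amylase genes. The pancreas-rich libraries were glo2-/- 1, glo2-/- 5, glo2+/+ 6 and glo2+/+ 3, and the pancreas-poor libraries were glo2-/- 2, glo2-/- 6, glo2+/+ 5 and glo2+/+ 4. Each side therefore held 2 libraries of either genotype, and the remaining 4 libraries (glo2-/- 3, glo2-/- 4, glo2+/+ 1 and glo2+/+ 2) were on neither side.

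The glo2-/- fish carried a CRISPR knockout of glyoxalase 2, an enzyme that completes the breakdown of methylglyoxal, and glo2+/+ fish were the wild type. Both genotypes carried the transgene Tg(fli1:EGFP), whose fli1 promoter drives green fluorescent protein in endothelial cells. All were adults, according to the design text, and were labelled as not trained. The labels give the tissue as whole liver and do not mention pancreas, and neither the knockout allele, the age in months, the sex nor whether each library came from a separate fish is given in the sources used here. P-values then measure the spread between these libraries, which may be partly technical.

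The exocrine pancreas is built of acinar cells, which store digestive enzymes and their inactive precursors (zymogens) in granules and release them through ducts into the intestine. In adult zebrafish this tissue is not a compact organ but is spread along the intestine and its mesentery, close to the liver lobes. Acinar cells devote most of their mRNA to a few secreted enzymes. In a bulk library, fewer acinar cells and less enzyme mRNA per cell cannot be told apart, and the source of these transcripts was not tested.

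Each library held between 17433960 and 18465485 estimated counts, and no library stood apart in depth or in its median correlation with the others (Spearman 0.943 to 0.951). HAGH, the gene of glyoxalase 2, lay between 76.6 and 88.6 CPM in the 6 glo2-/- libraries and between 91.3 and 104 CPM in the 6 glo2+/+ libraries, without overlap. The hepatocyte marker list took 203000 to 360000 CPM in the pancreas-rich and 208000 to 285000 CPM in the pancreas-poor libraries. Even in glo2-/- 1, the richest, enzymes and other zymogens together took 1.07% of the counts. Their share was 0.177% to 1.07% in pancreas-rich and 0.00582% to 0.0279% in pancreas-poor libraries.

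The enzyme score was 7.75 in glo2-/- 1, 6.77 in glo2-/- 5, 6.08 in glo2+/+ 6 and 5.44 in glo2+/+ 3. On the poor side it was 2.45 in glo2+/+ 5, 1.16 in glo2-/- 6, 0.91 in glo2-/- 2 and 0.06 in glo2+/+ 4. The means were 6.51 ± 0.99 and 1.15 ± 0.99 (SD, n = 4 each), and the richest library stood 206-fold above the poorest. The sides were selected on these values, which are a description. At the upper boundary glo2+/+ 3 (5.44, included) stood next to glo2+/+ 2 (5.18, not included), and 15 of the 17 score genes were higher in glo2+/+ 3. At the lower boundary the gap was wider, with 2.45 in glo2+/+ 5 (included) and 3.57 in glo2-/- 4 (not included), and all 17 score genes were higher in glo2-/- 4. Libraries on neither side averaged 4.41 ± 0.70 (SD, n = 4), between the sides.

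**Figure D1:**
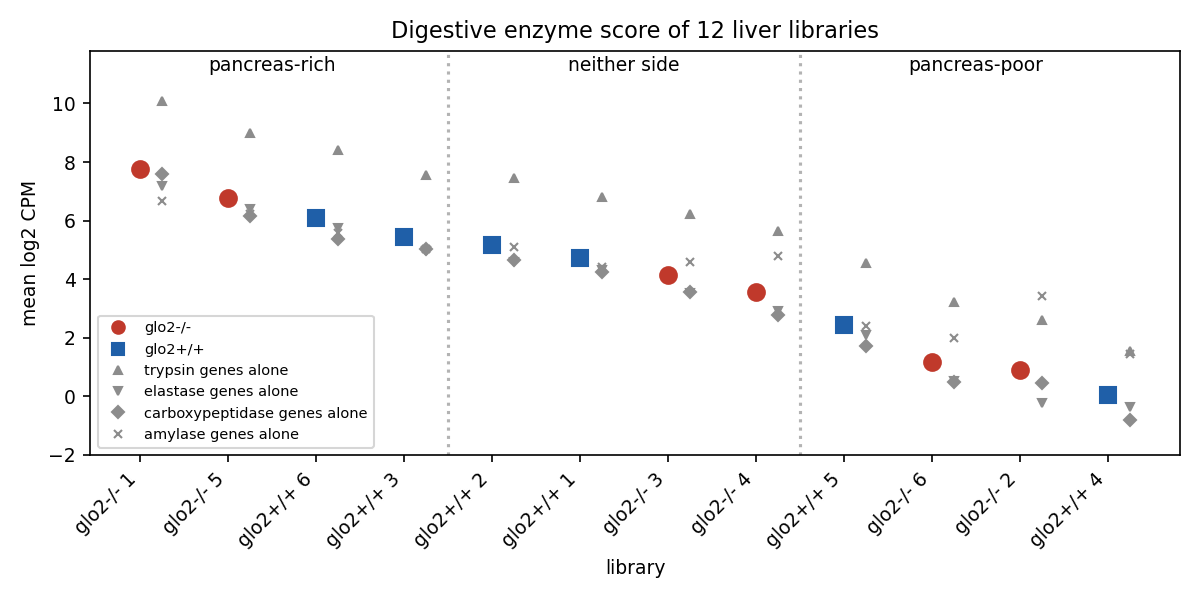
Enzyme score (vertical axis, mean log2 CPM of 17 score genes) of each of the 12 liver libraries (horizontal axis), with coloured points for the score by genotype and small grey points for the 4 kinds of enzyme taken alone. Scores of the pancreas-rich libraries lie between 5.44 and 7.75 and those of the pancreas-poor libraries between 0.06 and 2.45, and in glo2-/- 2 the amylase genes (3.44) lie well above its score of 0.91.

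Of 20 enzyme genes found in the tables, 17 had enough counts to enter the score. A gene is called here where the 4 pancreas-rich and 4 pancreas-poor libraries did not overlap in log2 CPM and the fitted log2 fold change, with genotype as covariate, was at least 1 in size. By this rule 16 of the 17 score genes were higher in the pancreas-rich libraries, with log2 fold changes of 4.94 (cela1.3) to 5.96 (CELA1, ENSDARG00000043175). Of all 14782 genes tested, 95 were called higher, or 0.643%, but the score genes chose the libraries and nothing is read from their count. The median log2 fold change of all tested genes was 0.01.

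Trypsins cleave proteins after basic residues and activate the other zymogens. The trypsin gene prss1, a marker of acinar cells, had 1110, 602, 512 and 224 CPM in glo2-/- 1, glo2-/- 5, glo2+/+ 6 and glo2+/+ 3. In glo2+/+ 5, glo2-/- 6, glo2-/- 2 and glo2+/+ 4 it had 30.7, 12.4, 8.20 and 3.49 CPM. The lowest pancreas-rich library was thus several times above the highest pancreas-poor one, and the log2 fold change was 5.40 (SE 0.81). The neighbouring genes prss59.1 and prss59.2 stood at 5.64 (SE 0.92) and 5.53 (SE 0.81). Another gene of that name, prss59, was not part of the score and did not follow: it had 488 counts summed over the pancreas-rich and 583 over the pancreas-poor libraries, or 0.925 times as many at equal depth (95% counting interval 0.819 to 1.05).

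Elastases cleave after small residues. CELA1 (ENSDARG00000017314) had the highest TPM (transcripts per 1000000, a length-corrected unit) of the score genes in every pancreas-rich library. It took 19.4% to 31.9% of the TPM of all score genes in pancreas-rich and 15.1% to 25.7% in pancreas-poor libraries. The marker ela2l had 360, 286, 242 and 99.0 CPM in glo2-/- 1, glo2-/- 5, glo2+/+ 6 and glo2+/+ 3, against 10.4, 4.11, 1.14 and 1.21 CPM in glo2+/+ 5, glo2-/- 6, glo2-/- 2 and glo2+/+ 4 (log2 fold change 5.89, SE 0.86). The sides again did not overlap. Both cela1.4 and cela1.5 were too low to enter the score. Summed over the sides, cela1.4 had 223 counts in pancreas-rich and 6 in pancreas-poor libraries (ratio 41.1, 95% counting interval 18.6 to 113). For cela1.5 the sums were 98 in pancreas-rich and 3 in pancreas-poor libraries (ratio 36.1, 12 to 178), although the richest library, glo2-/- 1, had 0. The gene cela1.7, which was not on the enzyme list and was looked at after the values were seen, had 81 counts in pancreas-rich and 2 in pancreas-poor libraries (ratio 44.8, 12 to 376), with 54 of the 81 in glo2-/- 1.

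Carboxypeptidases trim the peptides left by trypsin and elastase from their carboxyl end. The name table has no entry cpa5, the third of the acinar markers, and 2 genes it names CPA1 were used instead. CPA1 (ENSDARG00000021339) had 1010, 464, 412 and 209 CPM in glo2-/- 1, glo2-/- 5, glo2+/+ 6 and glo2+/+ 3, against 18.9, 7.56, 5.49 and 2.48 CPM in glo2+/+ 5, glo2-/- 6, glo2-/- 2 and glo2+/+ 4. Its log2 fold change was 5.83 (SE 0.79), and those of CPA1 (ENSDARG00000030915) and CPB1 were 5.70 and 5.72. The sides did not overlap for any of these 3 genes.

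Amylases, which break down starch, were the exception within the score. The gene amy2a behaved like the proteases, with a log2 fold change of 5.43 (SE 0.96), and amy2al2, too low for the score, had 357 counts in the pancreas-rich libraries, with 0 in glo2+/+ 3, and 10 in the pancreas-poor libraries (ratio 39.5, 95% counting interval 21.2 to 83). By contrast, amy2al1 had 46.0, 42.1, 66 and 22 CPM in glo2-/- 1, glo2-/- 5, glo2+/+ 6 and glo2+/+ 3, and 4.84, 14.7, 77.0 and 12.2 CPM in glo2+/+ 5, glo2-/- 6, glo2-/- 2 and glo2+/+ 4. The highest value of all thus belonged to a pancreas-poor library, glo2-/- 2, the sides overlapped, and the log2 fold change was 1.14 (SE 0.73). In pancreas-rich libraries amy2al1 took 0.312% to 1.11% of the TPM of the score genes, whereas in pancreas-poor libraries it took 1.39% to 47.3%. How reads were shared among the amylase copies was not tested.

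**Figure D2:**
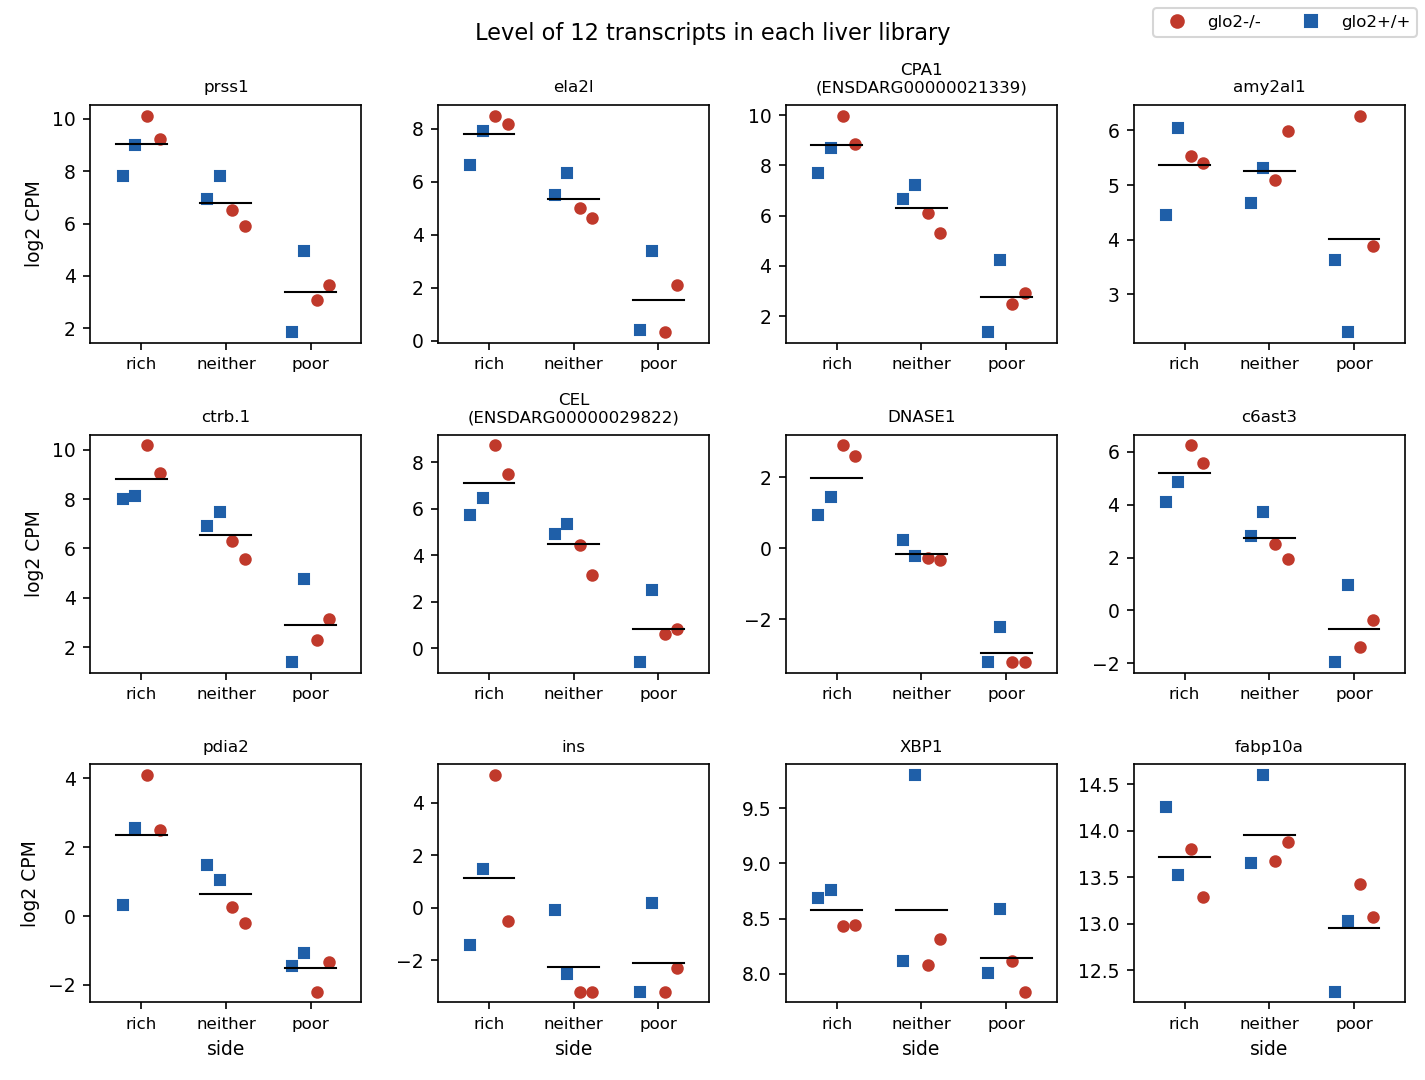
Level (log2 CPM, a separate vertical scale for each panel) of 12 transcripts in the pancreas-rich libraries, the libraries on neither side and the pancreas-poor libraries (horizontal axis), 1 point per library coloured by genotype, with a bar at the mean. A count of 0 sits at -3.19; prss1, ela2l, CPA1, ctrb.1, CEL, DNASE1, c6ast3 and pdia2 keep the 4 pancreas-rich above the 4 pancreas-poor libraries, while amy2al1, ins, XBP1 and fabp10a overlap.

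Outside the score, 79 genes were called higher in the pancreas-rich libraries and 51 were called lower (0.345% of tested genes). Ranked by fold change, the 79 split in 2: 23 genes had log2 fold changes of 3.58 to 6.98, and the next gene, her2, stood at 2.21. The split at 3 was chosen after these values were seen. Of the 23 genes, 10 were other zymogen or granule genes and 13 were not on any list of digestive enzymes.

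**Figure D3:**
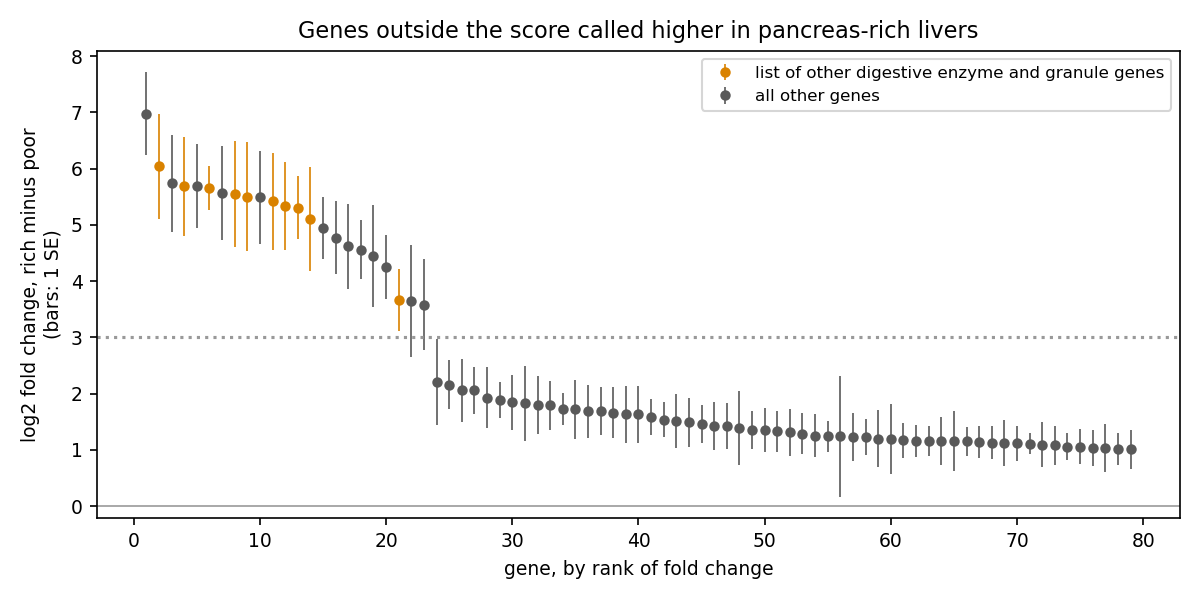
Fitted log2 fold change (vertical axis, pancreas-rich minus pancreas-poor, bars 1 SE) of the 79 genes outside the score that were called higher, in order of fold change (horizontal axis). Genes of the list of other zymogens are in orange; 23 genes lie above the dotted line at 3 and the other 56 lie at 2.21 or below.

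The list of other zymogens and granule proteins had 16 genes in the tables, of which 12 were tested. Of these, 10 were called higher, against 0.643% of all tested genes, and the list median was 5.38. Among the 10, PLA2G1B, SYCN (ENSDARG00000103687) and spink4 passed the filter on low counts only through the pancreas-rich libraries. The genes sycn.1 and ctrb.2 also needed the pancreas-rich libraries to pass. They had 1.25 and 1.93 CPM in glo2+/+ 5 but at most 0.287 and 0.253 CPM in the other pancreas-poor libraries. The count of calls is therefore a description. Chymotrypsinogens were prominent among the 10. The chymotrypsinogen ctrb.1 had 1160, 537, 277 and 254 CPM in glo2-/- 1, glo2-/- 5, glo2+/+ 6 and glo2+/+ 3, against 27.3, 8.75, 4.73 and 2.53 CPM in glo2+/+ 5, glo2-/- 6, glo2-/- 2 and glo2+/+ 4 (log2 fold change 5.55, SE 0.95). The sides stood far apart, as they did for ctrb.3 (5.69, SE 0.88), ctrl (5.34, SE 0.78) and ctrb.2 (5.11, SE 0.92). By RefSeq's annotation of GRCz12tu, the genes ctrb.1, ctrb.2 and ctrb.3 lie next to each other, as do prss59.1 and prss59.2, cela1.2 and cela1.3, and ela2 and ela2l.

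Lipid-digesting enzymes followed as closely. Both genes named CEL, the bile salt-activated lipase, were called: CEL (ENSDARG00000029822) had 423, 181, 89.2 and 53.6 CPM in glo2-/- 1, glo2-/- 5, glo2+/+ 6 and glo2+/+ 3, against 5.52, 1.67, 1.41 and 0.556 CPM in glo2+/+ 5, glo2-/- 6, glo2-/- 2 and glo2+/+ 4. Its log2 fold change of 6.04 (SE 0.94) was the second largest outside the score, and CEL (ENSDARG00000017490) stood at 5.42 (SE 0.86). PLA2G1B, the pancreatic phospholipase A2, averaged 12 ± 7.46 CPM in pancreas-rich and 0.278 ± 0.175 CPM in pancreas-poor libraries (SD, n = 4 each). Syncollin, a protein of the zymogen granule, followed through sycn.1 (5.5, SE 0.97) and SYCN (ENSDARG00000103687; 5.66, SE 0.39). The smallest fold change in this group was that of spink4, a Kazal-type protease inhibitor gene, at 3.67 (SE 0.55).

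Some listed granule genes did not follow. The genes cuzd1.1 and cuzd1.2, whose mammalian counterpart is a zymogen granule membrane protein, had log2 fold changes of 0.02 (SE 0.29) and 0.07 (SE 0.38). The level of cuzd1.1 was 6.19 ± 2.57 CPM in pancreas-rich and 6.03 ± 1.64 CPM in pancreas-poor libraries (SD, n = 4 each). The serine protease genes prss60.2 and prss60.3 and SYCN (ENSDARG00000090899) had 0 counts in all 8 libraries, and prss60.1 had 1 count in a pancreas-poor library.

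Of the 13 genes that followed at a log2 fold change of 3 or more without being on an enzyme list, 2 encode nucleases. DNASE1, a secreted DNA-degrading enzyme abundant in mammalian pancreas, had 123, 119, 49 and 27 counts in glo2-/- 1, glo2-/- 5, glo2+/+ 6 and glo2+/+ 3. On the poor side it had 2 counts in glo2+/+ 5 and 0 in glo2-/- 2, glo2-/- 6 and glo2+/+ 4. The sums were 318 counts in pancreas-rich and 2 in pancreas-poor libraries, 176 times as many when scaled to the same depth (exact 95% interval 48.3 to 1460, counting error only). DNASE1 passed the filter on low counts only through the pancreas-rich libraries, so its ratio and its rank are a description. The same holds for other low genes among the 23. Examples are ENDOU, pdia2, PLA2G1B, SYCN (ENSDARG00000103687) and spink4, which had at most 0.478 CPM in any pancreas-poor library. Its fitted log2 fold change, 6.98 (SE 0.74), depends on the fit's own prior count, not on the 2 used for log2 CPM. ENDOU, a uridylate-specific RNA endonuclease, had 519 counts against 9 (ratio 63.7, 95% counting interval 33.3 to 140) and a log2 fold change of 5.74 (SE 0.86).

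Among the same genes were 2 metalloproteases of the astacin family, c6ast3 and c6ast4, which are neighbours in the RefSeq gene order. The transcript of c6ast3 had 75.3, 47.9, 28.6 and 17.3 CPM in glo2-/- 1, glo2-/- 5, glo2+/+ 6 and glo2+/+ 3, against 1.82, 0.67, 0.272 and 0.152 CPM in glo2+/+ 5, glo2-/- 6, glo2-/- 2 and glo2+/+ 4 (log2 fold change 5.69, SE 0.75). For c6ast4 the log2 fold change was 4.25 (SE 0.57). Another run of neighbours, si:ch211-240l19.5, si:ch211-240l19.6, si:ch211-240l19.7 and si:ch211-240l19.8, was called in full, with log2 fold changes of 5.49, 5.57, 4.95 and 4.77; no function is annotated for these 4 genes in the tables used. The one with the highest CPM, si:ch211-240l19.8, had 337, 163, 89.4 and 128 CPM in glo2-/- 1, glo2-/- 5, glo2+/+ 6 and glo2+/+ 3, against 8.43, 3.40, 11.7 and 1.31 CPM in glo2+/+ 5, glo2-/- 6, glo2-/- 2 and glo2+/+ 4. The sides did not overlap, but within each side its order differed from that of prss1: glo2+/+ 3 exceeded glo2+/+ 6, and glo2-/- 2 was the highest of the pancreas-poor libraries.

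The protein disulphide isomerase pdia2, an endoplasmic reticulum enzyme found in mammals mainly in pancreas, had 16.9, 5.60, 5.79 and 1.13 CPM in glo2-/- 1, glo2-/- 5, glo2+/+ 6 and glo2+/+ 3, against 0.364, 0.287, 0.109 and 0.253 CPM in glo2+/+ 5, glo2-/- 6, glo2-/- 2 and glo2+/+ 4. The gap between the sides was narrower than for the enzymes because of glo2+/+ 3, and the log2 fold change was 4.62 (SE 0.76). The peptidoglycan recognition protein gene pglyrp6, whose products bind bacterial cell wall, had 18.8, 12.7, 8.82 and 5.13 CPM in glo2-/- 1, glo2-/- 5, glo2+/+ 6 and glo2+/+ 3 and 0.0957 to 1.72 CPM in the pancreas-poor libraries (4.45, SE 0.91). The sides of both genes were apart. APOD (ENSDARG00000060350), a lipocalin gene, had 4.40, 13.6, 2.28 and 1.53 CPM in glo2-/- 1, glo2-/- 5, glo2+/+ 6 and glo2+/+ 3, and 0.0543 to 0.989 CPM in the pancreas-poor libraries (log2 fold change 3.65, SE 0.99). Unlike prss1, APOD was highest in glo2-/- 5. The remaining pair were si:ch211-195b11.3 (4.56, SE 0.52) and ENSDARG00000101479 (3.58, SE 0.81), which has no name and was highest in glo2+/+ 6.

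Of the 25 genes of the acinar cell list, 9 were below the filter for the fit, several of them regulators. PTF1A, the transcription factor that specifies and maintains acinar cells, had 12, 11, 7 and 1 counts in glo2-/- 1, glo2-/- 5, glo2+/+ 6 and glo2+/+ 3 and 0 counts in each pancreas-poor library. With 31 counts against 0, the exact 95% interval of the ratio at equal depth starts at 8.75. RBPJL, its partner in acinar cells, had 11 counts in pancreas-rich and 2 in pancreas-poor libraries (ratio 6.08, 95% counting interval 1.33 to 56.4), with glo2+/+ 4 above glo2+/+ 3 and glo2+/+ 6. BHLHA15, a factor of secretory cells, had 25 counts in pancreas-rich and 5 in pancreas-poor libraries (ratio 5.53, 2.08 to 18.5), and its sides overlapped too, with 0 in glo2+/+ 3 and 3 in glo2-/- 2. For tmed6, a cargo receptor gene, every pancreas-rich library (6 to 13 counts) was above every pancreas-poor one (0 or 1). The cholecystokinin receptor gene CCKAR had 16 counts in pancreas-rich and 4 in pancreas-poor libraries (ratio 4.42, 1.43 to 18.2), with overlapping sides. DPEP1, a membrane dipeptidase gene, had 10 counts in pancreas-rich libraries, all in glo2-/- 5 and glo2+/+ 6, and 0 in pancreas-poor ones. RAB27A, a vesicle GTPase gene, had 37 counts in pancreas-rich and 30 in pancreas-poor libraries (ratio 1.36, 0.819 to 2.28). Of the 2 genes named CHRM3, a muscarinic receptor, 1 had 0 counts in pancreas-rich and 2 in pancreas-poor libraries, and the other had none.

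Of the 16 tested genes of the acinar cell list, which includes factors that liver also expresses, pdia2 alone was called, and the list median was 0.07. The level of XBP1, a transcription factor of the secretory apparatus, was 385 ± 45.1 CPM in pancreas-rich and 288 ± 68.9 CPM in pancreas-poor libraries (SD, n = 4 each), and the sides overlapped. NR5A2 stood at 45.3 ± 9.02 and 49.3 ± 2.2 CPM in the same order (SD, n = 4 each), and GATA6 at 67.6 ± 26.3 and 75.3 ± 9.69 CPM. The 50 tested genes of the general endoplasmic reticulum and secretory list had a median of 0.02. None was called, and with 0.643% of all tested genes called higher and 0.345% lower, nothing is read from that count. Summed over the list, the level was 5440 to 11200 CPM in pancreas-rich and 6920 to 10000 CPM in pancreas-poor libraries.

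Endocrine cells of the pancreatic islets lie within the same tissue, and their hormones were highest in the richest library. The insulin gene ins had 558, 12, 50 and 4 counts in glo2-/- 1, glo2-/- 5, glo2+/+ 6 and glo2+/+ 3, and 20, 2, 0 and 0 counts in glo2+/+ 5, glo2-/- 6, glo2-/- 2 and glo2+/+ 4. Most of the pancreas-rich total of 624 thus came from glo2-/- 1, and the value of the pancreas-poor library glo2+/+ 5 exceeded those of glo2-/- 5 and glo2+/+ 3. The log2 fold change was 4.23 with an SE of 1.84. Somatostatin (SST) had 230, 19, 35 and 17 counts and the glucagon gene gcga 189, 29, 34 and 4 counts in glo2-/- 1, glo2-/- 5, glo2+/+ 6 and glo2+/+ 3. In glo2+/+ 5, the highest of the pancreas-poor libraries for both, SST had 19 and gcga 24 counts. None of the 8 tested islet genes was called, since the sides overlapped, and their median was 0.91. Of all tested genes 0.643% were called higher and 0.345% lower, so nothing is read from that count. The pancreas-rich library with the second highest prss1, glo2-/- 5, had fewer ins counts than glo2+/+ 6.

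**Figure D4:**
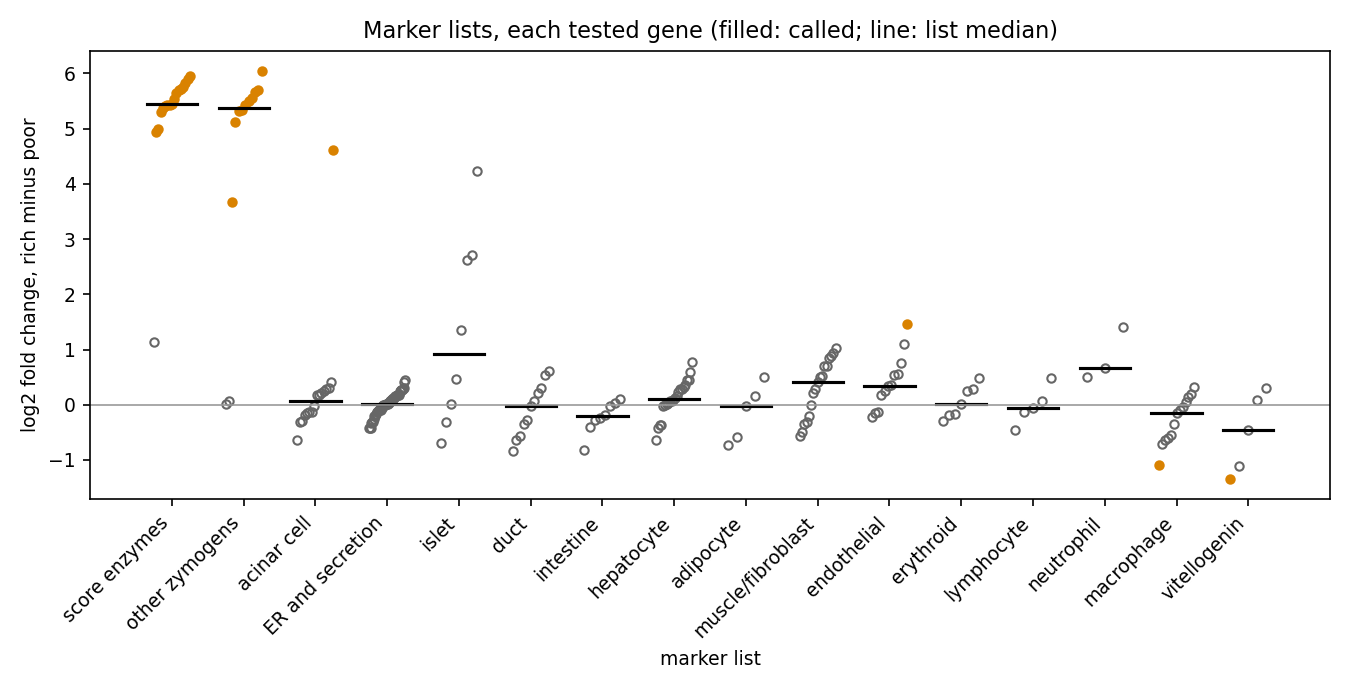
Log2 fold change (vertical axis, pancreas-rich minus pancreas-poor) of every tested gene of 16 marker lists (horizontal axis), with called genes filled and a bar at each list's median. The score enzymes and other zymogens have medians of 5.44 and 5.38, the islet list 0.91, and the medians of the 13 other lists lie between -0.46 and 0.67.

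Markers of the other tissues a liver sample could hold had list medians of -0.46 to 0.67. Of the tested genes of the duct (11), intestine (8), hepatocyte (22), adipocyte (5), smooth muscle and fibroblast (17), erythroid (7), lymphocyte (5) and neutrophil (3) lists, none was called, against 0.643% of all tested genes called higher and 0.345% called lower, and nothing is read from these counts. Intestine markers, from the organ that the exocrine pancreas borders, summed to 600 to 1330 CPM in pancreas-rich and 922 to 1170 CPM in pancreas-poor libraries, with a median log2 fold change of -0.21. Of the fibroblast and smooth muscle genes, 11 of 17 had positive values, with a median of 0.41 and examples such as 1.02 (SE 0.37) for col1a1a and 0.89 (SE 0.28) for COL1A2. Of the 22 tested hepatocyte genes, 16 had positive values, and the median was 0.1. The liver fatty acid binding protein fabp10a was at 13900 ± 4170 CPM in pancreas-rich and 8240 ± 2510 CPM in pancreas-poor libraries (SD, n = 4 each), overlapping. The mean of the hepatocyte gene hp went the other way, at 47.5 ± 8.33 and 77.6 ± 69.3 CPM in the same order (SD, n = 4 each), also overlapping. That higher pancreas-poor mean rested on glo2-/- 2 (179 CPM), with 23.9 to 56.2 CPM in the other pancreas-poor libraries and 39.1 to 58.2 CPM in the pancreas-rich ones. The part of these tissues in the other differences between the sides was not tested.

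A single gene was called on each of 3 further lists. Of all tested genes 0.643% were called higher and 0.345% lower, and nothing is read from 1 call on a list. The endothelial gene vwf, which encodes von Willebrand factor, had 1.84, 3.37, 2.87 and 1.93 CPM in glo2-/- 1, glo2-/- 5, glo2+/+ 6 and glo2+/+ 3 and 0.572 to 1.3 CPM in pancreas-poor libraries (log2 fold change 1.46, SE 0.33). The libraries on neither side had 1.86 to 2.63 CPM of vwf, within the pancreas-rich range. The other 11 tested endothelial genes were not called, and their summed level, vwf included, was 127 to 149 CPM in pancreas-rich and 115 to 142 CPM in pancreas-poor libraries. The macrophage receptor gene csf1ra was lower, at 1.34 ± 0.537 CPM in pancreas-rich and 2.85 ± 0.636 CPM in pancreas-poor libraries (SD, n = 4 each), and it was the only one of 13 macrophage genes called. Libraries on neither side had 1.29 to 6.21 CPM of csf1ra, from within the pancreas-rich range to above every pancreas-poor library. The yolk protein gene vtg7 was also lower (-1.34, SE 0.37) on 27 against 74 counts. With glo2+/+ 2, which had 22.6 CPM of vtg7, in place of glo2+/+ 3 its sign turned (1.65).

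The 56 genes higher outside the score at a log2 fold change under 3 had a median of 1.32, and they included no gene of the enzyme, zymogen, acinar or islet lists. Those named here were chosen after their values were seen. They included her2 (2.21), a Hes-type repressor, ACKR3 (ENSDARG00000058179; 2.16, SE 0.44), a chemokine scavenger receptor, JUNB (ENSDARG00000074378; 1.93, SE 0.54), an immediate early transcription factor, and cdkn1a (1.16, SE 0.28), a cell cycle inhibitor. With glo2+/+ 2 in place of glo2+/+ 3, 53 of these 56 genes were tested and 37 of them were called.

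The 51 lower genes had no member on the lists apart from csf1ra and vtg7. Of those named by fold change, TGFBI, a secreted matrix protein gene, had the highest CPM, with 23.7, 20.7, 52.5 and 60.4 CPM in glo2-/- 1, glo2-/- 5, glo2+/+ 6 and glo2+/+ 3, against 114, 122, 126 and 114 CPM in glo2+/+ 5, glo2-/- 6, glo2-/- 2 and glo2+/+ 4 (log2 fold change -1.75, SE 0.30). The sides were clearly apart, but the libraries on neither side had 18.5 to 41.8 CPM, as low as or lower than the pancreas-rich ones, so that TGFBI did not run along the gradient. PTGIR, the prostacyclin receptor, had 4.52 to 6.00 CPM in pancreas-rich and 9.34 to 24.3 CPM in pancreas-poor libraries (-1.67, SE 0.30). HEXA, a lysosomal hexosaminidase subunit, averaged 4.87 ± 0.759 and 19.7 ± 10.4 CPM in the same order (SD, n = 4 each), and SGK2, a kinase, 4.28 ± 1.43 and 12.7 ± 6.62 CPM. In the libraries on neither side HEXA had 20.8 and 18.4 CPM in glo2+/+ 1 and glo2+/+ 2, whose scores were higher. It had 4.64 and 5.23 CPM in glo2-/- 3 and glo2-/- 4, so HEXA did not run along the gradient either.

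Larger negative fold changes rested on few counts. The unnamed ENSDARG00000106998 had 10 counts in pancreas-rich libraries, all in glo2-/- 1, against 333 in the pancreas-poor ones (ratio 0.0332, 95% counting interval 0.0158 to 0.0618). The melatonin receptor gene mtnr1al had 26 against 405 counts, of which the library glo2+/+ 4 (13.2 CPM) held the most. STK24 (ENSDARG00000100955), a kinase gene, had 34 against 339 counts. Each library on neither side had 33 to 108 counts of STK24, within the pancreas-poor range. In the remaining lower genes named by rule, si:dkey-240n22.6, si:dkey-58f10.6 and numa1, which organises the mitotic spindle, the log2 fold changes were -2.55, -1.82 and -1.74.

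The 4 libraries on neither side were not used to choose the genes, and show which of them ran with the enzyme score elsewhere. A slope of log2 CPM on the score was fitted in these 4 libraries for 14616 genes, where 1 means that a transcript changed in proportion to the score. The 16 score genes called higher had a median slope of 1.13 (0.72 to 1.33), while amy2al1, also in the score, had -0.47 (SE 0.30). The score is the mean of these genes, so their slopes average close to 1 by construction and are a description. No gene passed the adjusted threshold in either direction (edgeR, adjusted p of 0.05), while 296 genes with a positive and 303 with a negative slope (2.03% and 2.07% of those tested) had an unadjusted p under 0.05. DESeq2 called 34 positive and 22 negative slopes. Of the 23 genes with large fold changes, 22 had a positive slope, against 51.3% of all tested genes, and 16 (69.6%) had an unadjusted p under 0.05. These 23 genes include runs of neighbours and were fitted in the same 4 libraries. They are not independent of each other, and the counts are a description. Their median slope was 1.28, over a range of -0.06 to 1.86, and the lowest adjusted p was 0.920 by edgeR.

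The chymotrypsin-like gene ctrl had 80.1, 39.4, 17.2 and 13.3 CPM in glo2+/+ 2, glo2+/+ 1, glo2-/- 3 and glo2-/- 4, in the order of their scores of 5.18, 4.74, 4.13 and 3.57. Its slope of 1.63 (SE 0.25) was called by DESeq2 (adjusted p = 0.000671), as were those of ctrb.1 (adjusted p = 0.00369), ctrb.3 (0.0191) and CEL (ENSDARG00000029822; 0.0283). Outside the enzyme and zymogen lists, c6ast3 had a slope of 1.06 (SE 0.26), ENDOU 1.09 (SE 0.37) and si:ch211-240l19.7 the steepest at 1.86 (SE 0.38). DESeq2 did not call the slopes of c6ast3 (adjusted p = 0.348), si:ch211-240l19.7 (0.151), c6ast4 (0.523) or PLA2G1B (0.106). Close to 0 were DNASE1 (0.20, SE 0.47), si:ch211-240l19.8 (0.02, SE 0.29) and ENSDARG00000101479 (-0.06, SE 0.50). DNASE1 had 11 to 19 counts in each of these libraries, above every pancreas-poor and below every pancreas-rich library, but nearly level among themselves.

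**Figure D5:**
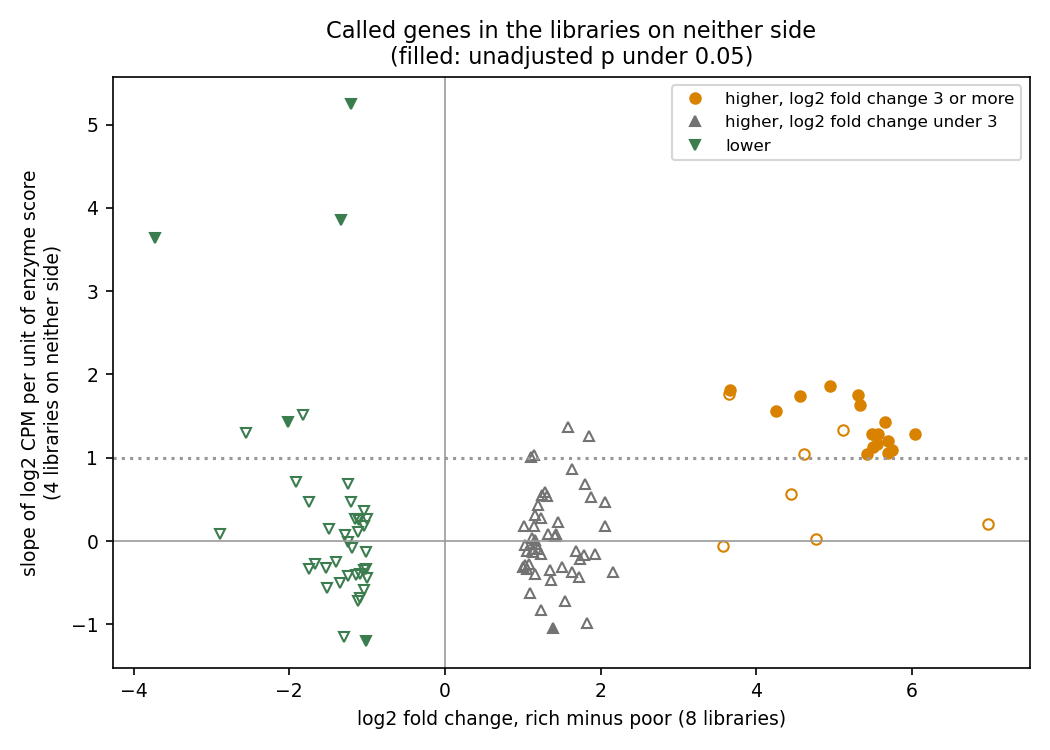
Slope on the enzyme score in the 4 libraries on neither side (vertical axis, log2 CPM per unit of score) against the log2 fold change between the sides (horizontal axis) for the called genes outside the score that could be fitted in both, filled where the unadjusted p was under 0.05. Of the 23 genes with fold changes of 3 or more, 22 have a positive slope and most lie near the dotted line at 1, whereas the smaller fold changes on both sides scatter about 0.

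Of the 56 genes with smaller fold changes, 50 could be fitted, 23 had a positive slope, and 0 were positive with an unadjusted p under 0.05. Of the 51 lower genes, 40 could be fitted and 20 had a positive slope. At an unadjusted p under 0.05, 1 (2.50%) had a negative slope, against 4 (10%) with a positive one. Of all tested genes 2.07% had a negative and 2.03% a positive slope at that threshold, and nothing is read from so few genes. The 4 included HEXA (1.43, SE 0.41), mtnr1al (3.64, SE 1.46) and vtg7 (3.85, SE 0.92), opposite to their fold changes. HEXA and mtnr1al were higher in both glo2+/+ than in both glo2-/- libraries there. The level of vtg7 was 22.6 CPM in glo2+/+ 2 and 0.378 to 0.722 CPM in the other libraries on neither side. The mean of the libraries on neither side lay between the side means for all 23 genes with large fold changes, for 47 of the 56 (83.9%) and for 41 of the 51 (80.4%), against 37.8% of all tested genes. Genes chosen for separated sides have a wider gap to fall into, so nothing is read from these shares.

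In the libraries on neither side both glo2+/+ libraries had higher scores than both glo2-/- libraries, so the slope and the genotype cannot be told apart there. A genotype covariate leaves only the differences within each genotype to fit the slope, on very few libraries. The fits that leave out a library had no such covariate. With genotype as a covariate, 4 of the 23 genes had a positive slope at an unadjusted p under 0.05. Without glo2-/- 4 the number was 7, and without glo2+/+ 2, glo2-/- 3 or glo2+/+ 1 it was 11, 13 or 15.

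Between the genotypes the enzyme score averaged 4.05 ± 2.81 in glo2-/- and 3.99 ± 2.29 in glo2+/+ livers (SD, n = 6 each), a difference of 0.06. The score chose the sides, so this is a description. The spread within a genotype was far larger than the difference between them. Both the richest library and 2 of the 4 poorest were glo2-/-. Within each genotype alone, 2 libraries face 2. The difference in log2 CPM was larger in the glo2-/- libraries for most score genes and genes with large fold changes, such as 6.32 in glo2-/- and 5.01 in glo2+/+ libraries for prss1, and 5.27 in glo2-/- and 1.76 in glo2+/+ libraries for APOD (ENSDARG00000060350). The exceptions were amy2al1 (0.38 in glo2-/- and 2.29 in glo2+/+) and ENSDARG00000101479 (2.39 in glo2-/- and 2.86 in glo2+/+). The difference between the genotypes' gaps was not tested, and the glo2-/- libraries also had the wider range of scores.

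With the enzyme score as a covariate over all 12 libraries, the genotypes were compared at equal pancreas level. The score genes build this covariate, and the 23 genes with large fold changes were chosen on sides sorted by it. The comparison therefore bears on the remaining genes, and values of the 23 genes are a description. Of 14556 genes tested, 1 was called higher in glo2-/- (0.00687%), zgc:195170 (log2 fold change 8.28, edgeR adjusted p = 4.85e-07), and 0 lower by edgeR. At an unadjusted p under 0.05, 384 were higher (2.64%) and 564 lower (3.87%), and DESeq2 called 9 higher and 16 lower. None of the 23 genes with large fold changes was called: their log2 fold changes between glo2-/- and glo2+/+ ranged from -0.72 to 0.63, and the lowest edgeR adjusted p was 0.749. For DNASE1 the value was 1.21 without the score and 0.27 (SE 0.41) with it, and for CEL (ENSDARG00000029822) 1.54 and 0.09 (SE 0.14). Genes chosen for running with the score can be expected to shrink this way, so nothing on genotype is read from these values. HAGH stayed at -0.22 either way (edgeR adjusted p = 0.755 with the score).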

How the data were processed

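The authors deposited estimated counts and TPM per gene for each library, made with Trim Galore 0.6.4 and kallisto 0.4.6 on build GRCz11, per the submitters' processing notes. RNA was extracted with TRIzol and sequenced on BGISeq-500, per the labels' protocols. The sources used here give neither the summing of transcripts to genes nor a strand setting, and values of copies that share reads are uncertain. Of 32520 gene identifiers, 29201 had a name.

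Counts were rounded and fitted with edgeR 4.0.16 in R 4.3.3 (glmQLFit and glmQLFTest after filterByExpr, with TMM factors; Benjamini-Hochberg threshold 0.05). Log2 CPM used a prior count of 2. Each SE given with an edgeR fold change or slope is the size of that value divided by the square root of its quasi-likelihood F statistic, an approximation. The contrast between the sides used a readout of the same libraries, so it has no p-value. The sides and gene lists were chosen with earlier results of these data known. Ratios of summed counts were scaled by effective library size, with exact binomial intervals at 95% that cover counting error only. The fits were tested on simulated counts of independent genes with known changes, called by adjusted p. That does not test the rule of no overlap used between the sides. All 66 pairs of libraries differed beyond sampling noise (lowest chi-square per gene 33.6).

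The text names the markers, the extreme score genes, members of the zymogen and acinar lists, the 15 largest and 10 smallest fold changes among called genes with an average log2 CPM of at least 1 (at most 3 clone-based names a direction), up to 3 members of each other list, the 10 called genes with the lowest slope p, and hagh. All 13 genes outside the enzyme and zymogen lists with log2 fold changes of 3 or more, and a few others marked in the text or given as examples, were added after their values were seen. Of 317 list entries, 42 matched no gene. Alternatives were run with DESeq2 1.42.0 and, on TPM, limma 3.58.1. A planned description of promoter motifs was not run.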

Additional observations from a re-analysis of the deposited data

Results flagged for a closer look

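The screen took the enzyme score, the score genes and the genes named by fold change or by slope, with 1 set of 4 values per side. In these 88 sets, 3 had 1 library far from the other 3, where chance gives about 4. Genes named only as members of a marker list, such as ins, were not screened. DNASE1 had a log2 CPM of -2.22 in the pancreas-poor library glo2+/+ 5, whereas the other 3 pancreas-poor libraries had no counts and sat at -3.19. The chymotrypsinogen ctrb.2 had 1.03 in the same library, against -1.87 to -1.46 in the others, and glo2+/+ 5 was the pancreas-poor library with the highest enzyme score. ENSDARG00000106998 had -0.51 in glo2-/- 1, the only pancreas-rich library with counts for it, against -3.19 in the others.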

How the results depend on the processing

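The counts of called genes between the sides depended on the settings. Of the 23 genes outside the score with log2 fold changes of 3 or more, 22 were called by limma on either TPM scale and 22 with glo2+/+ 2 in place of glo2+/+ 3, and the stricter filter tested 19 and called 19. Sides that do not overlap cannot overlap with fewer libraries, so the fits without a library or within a genotype say little on these genes. The calls, 95 higher and 51 lower, became 185 and 127 with no filter, 63 and 25 with at least 30 counts in 4 libraries, 51 and 119 by limma on log2(TPM + 0.1), and 439 and 430 in glo2-/- or 388 and 404 in glo2+/+ libraries alone, where 2 libraries face 2. On log2(TPM + 1) 44 were higher and 35 lower, and 15 of the 35 were among the 51. Leaving out 1 library gave 129 to 218 higher and 54 to 171 lower genes. The higher count moved by over 1.5 times without glo2-/- 2 (177), glo2+/+ 3 (218), glo2+/+ 4 (147) or glo2+/+ 5 (158), and the lower count without glo2-/- 1 (91), glo2-/- 2 (142), glo2-/- 5 (126), glo2+/+ 3 (171), glo2+/+ 5 (105) or glo2+/+ 6 (95). With glo2+/+ 2 in place of glo2+/+ 3, chosen after seeing the data, 94 were lower, and vtg7 turned to 1.65, or to 0.53 as a slope over 12 libraries. The cause was not tested.

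In the libraries on neither side, slopes were called lower for 2 genes without a filter and for 7 with genotype as covariate, and DESeq2 called 34 higher and 22 lower. Without 1 library no slope was called, by edgeR. For the genotypes at equal score DESeq2 called 9 higher and 16 lower, and leaving out 1 library gave 1 to 2 higher and 0 to 1 lower, with 2 higher without glo2+/+ 6 and 2 higher and 1 lower without glo2-/- 6. The score difference between genotypes was -0.17 from elastase genes alone. Replicate numbers did not pair the libraries, with correlations of deviations of 0.21, -0.05, 0.01, 0.09, 0.03 and -0.28 for numbers 1 to 6, and the fit with the replicate block called 1 gene higher and 0 lower, as without it. Below about 10 counts a side, counting error limits every ratio given.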
